A study of Mus musculus with 6 samples.

Results

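The transcripts described here encode the interleukin-6 (IL-6) receptor and its closest relatives: the receptor chains *Il6ra*, *Il6st*, *Il27ra* and *Lifr*, the cytokines *Osm* and *Lif*, and the transcription factor *Stat3*. They were measured in activated CD8 T cells in which expression of KLF2, a Krüppel-like transcription factor of quiescent T cells, was maintained from a retrovirus. All probe sets annotated to exactly 1 gene were taken where that gene was one of these 7, which gave 17 of the 45037 probe sets on the array that are not controls, and 7 of the 18193 genes that such probe sets cover. GFP-KLF2pos cells, transduced with a GFP-KLF2 fusion construct, were compared with GFPpos cells, transduced with the empty GFP vector, in 3 arrays per group. Both groups came from splenocytes of C57BL/6 mice of 8 to 12 weeks that carry the P14 T cell receptor transgene, which recognises a peptide of lymphocytic choriomeningitis virus. Both were stimulated for 48 hours with that peptide, transduced at 18 hours, kept for a further 48 hours in IL-2 and sorted for GFP. A legend in the study's supplement gives a longer IL-2 culture. The labels call the arrays biological replicates but do not say whether they came from separate mice, so that p-values measure the spread between these samples.

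IL-6 binds the alpha chain that *Il6ra* encodes, and the complex then engages gp130, the shared signalling chain that *Il6st* encodes. gp130 carries JAK kinases, which phosphorylate STAT3, and STAT3 enters the nucleus and switches on target genes, among them its own inhibitor *Socs3*. Leukaemia inhibitory factor (*Lif*), oncostatin M (*Osm*) and IL-27 use the same chain, each together with a partner of its own, such as the products of *Lifr* and *Il27ra*. Naive T cells carry the IL-6 receptor and lose much of it on activation.

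KLF family members bind CACCC elements in DNA, and the windows around the start sites of *Il6ra* and *Stat3*, which rose, and of *Il6st* and *Lif*, which did not pass the test, are shown for this reason. Each holds 250 bases before and 50 after the RefSeq start (GRCm38.p6), is written 5′ to 3′ on the strand of the gene, and has CACCC or its reverse complement GGGTG in capitals.
Il6ra (chr3:89913147-89913446, minus strand): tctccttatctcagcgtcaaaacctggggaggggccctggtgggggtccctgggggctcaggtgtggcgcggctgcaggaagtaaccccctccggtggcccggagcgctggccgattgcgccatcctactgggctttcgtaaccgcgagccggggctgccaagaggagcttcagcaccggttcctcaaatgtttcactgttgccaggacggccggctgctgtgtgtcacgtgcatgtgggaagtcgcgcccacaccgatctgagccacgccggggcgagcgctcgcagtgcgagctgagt
Stat3 (chr11:100939491-100939790, minus strand): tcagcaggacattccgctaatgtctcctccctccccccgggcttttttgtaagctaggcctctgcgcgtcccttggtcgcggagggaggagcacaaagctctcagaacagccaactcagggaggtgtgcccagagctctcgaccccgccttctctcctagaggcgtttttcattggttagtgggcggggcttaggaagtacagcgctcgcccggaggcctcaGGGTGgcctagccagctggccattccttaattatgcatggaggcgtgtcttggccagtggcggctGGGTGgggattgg
Il6st (chr13:112463820-112464119, plus strand): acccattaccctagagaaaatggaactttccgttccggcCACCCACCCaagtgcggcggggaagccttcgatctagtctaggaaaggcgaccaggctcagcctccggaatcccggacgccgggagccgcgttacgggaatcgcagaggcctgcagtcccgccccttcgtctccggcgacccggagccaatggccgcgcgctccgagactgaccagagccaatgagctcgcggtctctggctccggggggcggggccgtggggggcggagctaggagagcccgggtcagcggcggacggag
Lif (chr11:4257318-4257617, plus strand): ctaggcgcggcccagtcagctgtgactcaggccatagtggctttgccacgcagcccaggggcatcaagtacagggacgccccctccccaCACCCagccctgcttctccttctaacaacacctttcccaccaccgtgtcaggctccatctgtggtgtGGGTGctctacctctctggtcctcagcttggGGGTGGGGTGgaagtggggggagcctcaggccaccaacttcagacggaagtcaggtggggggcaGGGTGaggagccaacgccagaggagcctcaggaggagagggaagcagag
The *Il6ra* window holds 0 of these elements, that of *Stat3* 2, that of *Il6st* 2 that overlap by 1 base, and that of *Lif* 5. At least 1 is found in 57.5%, at least 2 in 25.7% and at least 3 in 9.3% of all 32851 windows of the table. The palindrome TTCNNNGAA, bound by STAT factors and read the same on both strands, is in none of the 4, and in 8.3% of all windows. A match or its absence describes only the letters in this window. Windows were found for 5 of the 7 genes, and those of *Lifr*, not printed here, hold 1 and 4 CACCC elements. The chromosomes of all 7 genes are 3 (*Il6ra*), 8 (*Il27ra*), 11 (*Osm*, *Lif* and *Stat3*), 13 (*Il6st*) and 15 (*Lifr*).

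Of the 7 genes *Il6ra*, *Osm* and *Stat3* rose with maintained KLF2 expression, and the other 4 did not pass the test. For each gene the brightest probe set, by the mean of the 6 arrays, stood for the gene. That mean takes in both groups. In GFPpos arrays alone another *Il6ra* probe set, 1422270_a_at, was brighter on average than the one used (6.53 against 5.58). The threshold was an adjusted p under 0.046 by limma, with Benjamini-Hochberg adjustment over all 45037 probe sets. At this threshold 6.22% of all genes rose and 8.35% fell (1131 and 1519 genes), whereas after a cyclic loess normalization 1388 rose and 961 fell. Of the 17 probe sets 6 rose and 0 fell, against 4.76% and 6.39% of all probe sets. At an unadjusted p under 0.05, 3 of the 17 probe sets were lower, of *Il6st* and *Lifr*, as were 14.6% of all probe sets. The groups did not overlap for *Il6ra*, *Osm* and *Stat3*, all higher in GFP-KLF2pos cells, as held for 14.3% of all genes. The median log2 fold change was 0.40 over the 7 genes and -0.01 over all genes. *Il6ra* and *Osm* also exceeded the 2-fold threshold of the study's methods, whereas *Stat3* did not. In RNA of sorted populations, fewer cells that express a gene and less RNA per cell cannot be told apart.

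**Figure D1:**
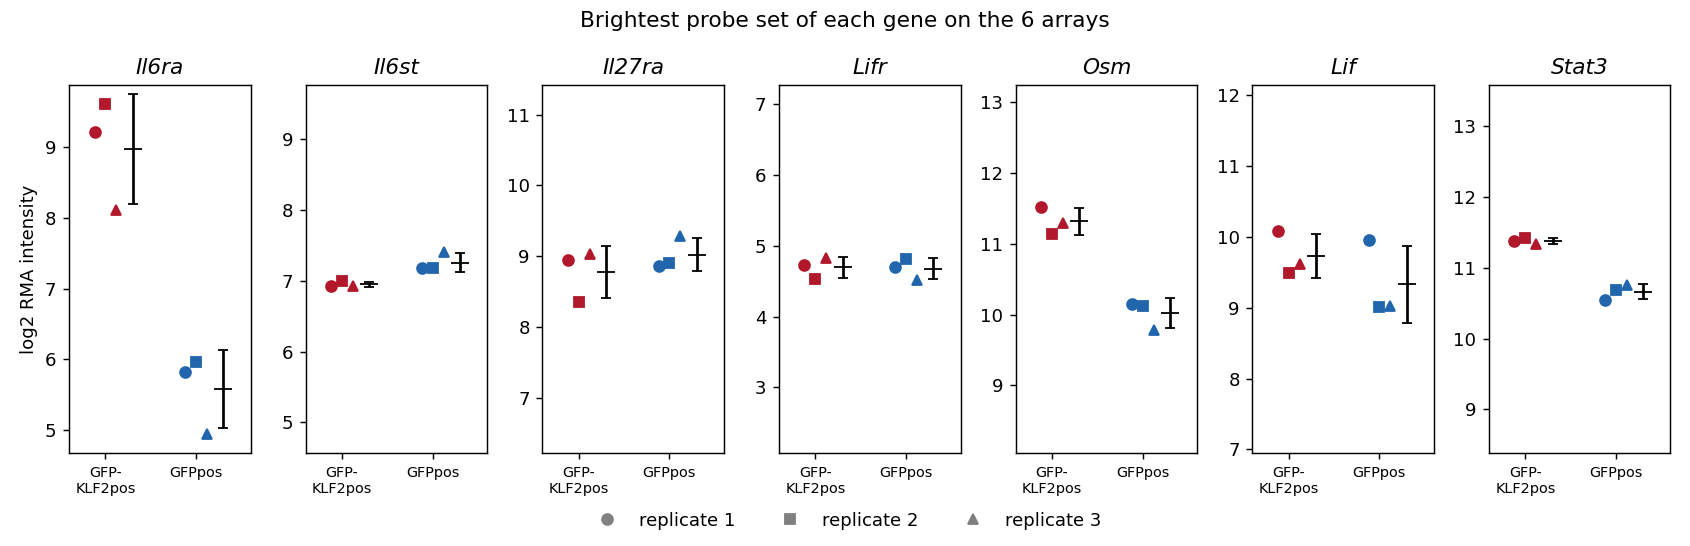
Log2 RMA intensity of the brightest probe set of each of the 7 genes on the 6 arrays, with GFP-KLF2pos arrays in red and GFPpos arrays in blue. Marker shapes give the replicate number and bars the mean ± SD (n = 3). Every panel spans the same range of the log2 scale. The groups lie apart for Il6ra, Osm and Stat3, which are higher in GFP-KLF2pos, and narrowly for Il6st, which is lower.

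*Il6ra*, the alpha chain that gives a cell its specificity for IL-6, showed the greatest change of the 7. Its brightest probe set, 1452416_at, read 9.21, 9.61 and 8.11 in GFP-KLF2pos arrays, against 5.82, 5.97 and 4.95 in GFPpos arrays (log2 intensity, replicates 1, 2 and 3). The groups were thus far apart, and replicate 3 was the lowest of its group in both. The means were 8.98 ± 0.78 in GFP-KLF2pos cells and 5.58 ± 0.55 in GFPpos cells (SD, n = 3), or 3.40 ± 0.41 apart on the log2 scale (± standard error, 95% confidence interval 2.44 to 4.35, limma adjusted p = 0.00347), which is 10.5-fold. GFPpos cells were near the median of all probe sets, 5.64 to 5.67 on the 6 arrays. Among 18193 genes ordered by log2 fold change, *Il6ra* was number 16 from the top.

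A second *Il6ra* probe set, 1422270_a_at, also rose, but by less. It read 7.42, 7.68 and 6.98 in GFP-KLF2pos arrays and 6.56, 6.58 and 6.45 in GFPpos arrays. These groups too did not overlap, as was the case with GFP-KLF2pos higher for 12.5% of all probe sets. This rise, 0.83 ± 0.17 on the log2 scale (adjusted p = 0.0203), corresponds to 1.78-fold. It passed without GFP-KLF2pos replicate 3 but did not pass without any other single array (adjusted p = 0.0464 to 0.0713). Within each array the first probe set minus the second was 1.79, 1.93 and 1.13 in GFP-KLF2pos cells, against -0.74, -0.61 and -1.50 in GFPpos cells. The change at the first probe set therefore exceeded that at the second by 2.56 on the log2 scale, with an exact 2-sided permutation p of 0.1, the smallest that 3 arrays against 3 allow. With both probe sets averaged the log2 fold change of *Il6ra* was 2.11. The size of the rise thus depends on which probe set is read, while its direction does not.

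**Figure D2:**
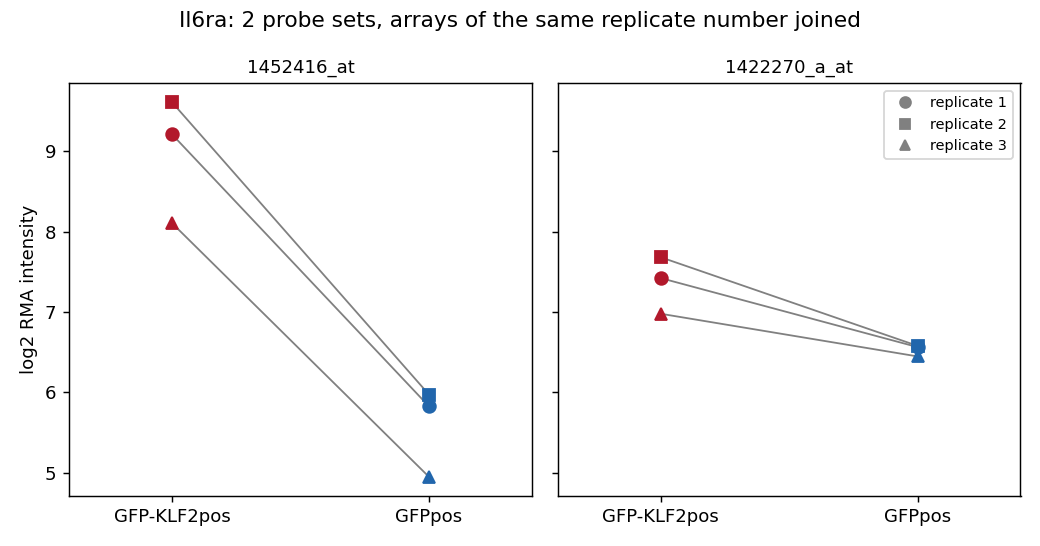
Log2 RMA intensity of the 2 Il6ra probe sets, GFP-KLF2pos on the left and GFPpos on the right of each panel, with lines joining arrays of the same replicate number. GFP-KLF2pos is higher in all 3 pairs at both probe sets, by 3.16 to 3.64 at 1452416_at and by 0.53 to 1.10 at 1422270_a_at.

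*Il6st*, which encodes gp130, had the opposite sign. Its brightest probe set, 1452843_at, read 6.93, 6.99 and 6.93 in GFP-KLF2pos arrays, against 7.19, 7.18 and 7.41 in GFPpos arrays. The groups did not overlap, but lay close together, and 20.6% of all genes were lower in GFP-KLF2pos cells without overlap. The log2 fold change of -0.31 (standard error 0.09) missed the threshold (limma adjusted p = 0.0638), although its unadjusted 95% confidence interval was -0.51 to -0.10. The 3 other probe sets had log2 fold changes of -0.19, -0.10 and -0.29 (adjusted p = 0.216, 0.616 and 0.138). All 4 values were thus negative, and groups did not overlap for 3 of the 4 probe sets, where 17.3% of all probe sets were lower without overlap. After a further quantile normalization *Il6st* passed (log2 fold change -0.31, adjusted p = 0.0422), and under the other alternatives it did not. None of the 4 intervals reaches a 2-fold change in either direction.

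*Il27ra*, the IL-27 receptor chain that pairs with gp130, has a single probe set, which read 8.95, 8.35 and 9.03 in GFP-KLF2pos arrays and 8.87, 8.90 and 9.29 in GFPpos arrays. The groups overlapped, with a low value in GFP-KLF2pos replicate 2. The log2 fold change was -0.24 (95% confidence interval -0.70 to 0.22, adjusted p = 0.537).

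*Lifr*, the receptor chain for leukaemia inhibitory factor, gave signals near the lower end of the arrays. Its brightest probe set read 4.73, 4.53 and 4.83 in GFP-KLF2pos cells and 4.71, 4.81 and 4.52 in GFPpos cells, where the lower quartile of all probe sets was 4.18 to 4.25 on the 6 arrays. The groups overlapped, with a log2 fold change of 0.02 (95% confidence interval -0.24 to 0.28, adjusted p = 0.946). The other probe sets, at group means of 3.07 to 3.75, lay below that quartile and had log2 fold changes of -0.23 (adjusted p = 0.135) and -0.04 (0.874). At such levels a difference of a weakly expressed transcript may not be detectable.

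*Osm*, which encodes oncostatin M, a cytokine made by activated T cells and myeloid cells, rose 2.46-fold. Its probe set, 1438767_at, read 11.51, 11.14 and 11.30 in GFP-KLF2pos arrays, against 10.15, 10.13 and 9.78 in GFPpos arrays. The lowest GFP-KLF2pos array thus stood nearly 1 unit above the highest GFPpos array. The means were 11.32 ± 0.19 in GFP-KLF2pos cells and 10.02 ± 0.21 in GFPpos cells (SD, n = 3), or 1.30 ± 0.14 apart on the log2 scale (± standard error, limma adjusted p = 0.00226), number 297 from the top among all genes. Only 1 probe set was annotated to *Osm*, so that no second reading was available.

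*Lif* encodes a related cytokine whose gene follows *Osm* directly on chromosome 11 in the RefSeq order. It read 10.09, 9.50 and 9.62 in GFP-KLF2pos arrays and 9.95, 9.01 and 9.03 in GFPpos arrays. The groups overlapped, with replicate 1 the highest in both, and GFP-KLF2pos was higher in each of the 3 pairs of equal number, by 0.13, 0.49 and 0.59. The log2 fold change of 0.40 (95% confidence interval -0.23 to 1.03, adjusted p = 0.436) did not pass. With the replicate number as a block, limma gave the same change an adjusted p of 0.04999, just above the threshold. The interval without the block takes in a 2-fold rise. The dimmer probe set of *Lif* had 0.22 (adjusted p = 0.366).

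*Stat3*, the transcription factor on which IL-6 signals converge, rose 1.64-fold. Its brightest probe set, 1426587_a_at, read 11.38, 11.42 and 11.33 in GFP-KLF2pos arrays, against 10.54, 10.69 and 10.76 in GFPpos arrays. The GFP-KLF2pos arrays lay within 0.1 of each other and all above the GFPpos arrays. On the log2 scale the rise was 0.71 ± 0.08 (± standard error, 95% confidence interval 0.52 to 0.91, limma adjusted p = 0.00325), number 743 among all genes. The probe sets 1460700_at and 1459961_a_at rose too, by 0.69 (adjusted p = 0.00463) and 0.39 (adjusted p = 0.0413). The second of these, 1459961_a_at, passed without GFPpos replicate 3 but not without any other single array (adjusted p = 0.0894 to 0.119). A probe set of *Stat3* at 5.58 in GFP-KLF2pos and 5.54 in GFPpos cells, 1424272_at, differed by 0.03 on the log2 scale (adjusted p = 0.883).

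**Figure D3:**
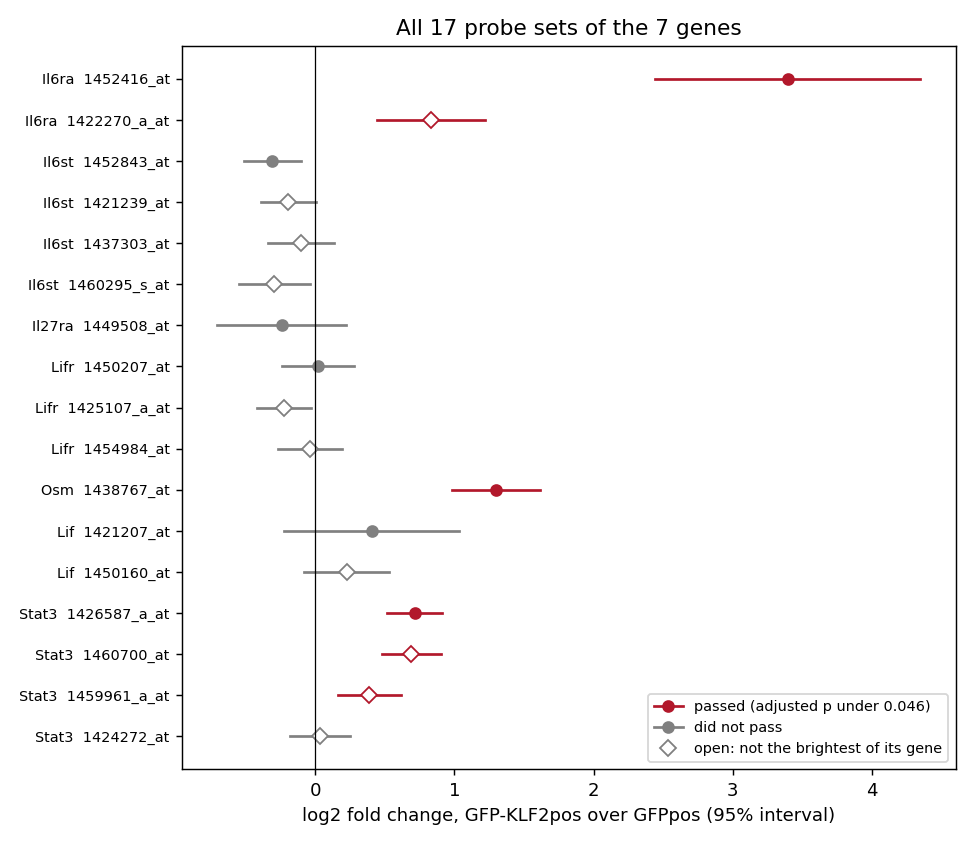
Log2 fold change of GFP-KLF2pos over GFPpos for all 17 probe sets, with unadjusted 95% confidence intervals from limma. Red marks the 6 probe sets that passed, grey the 11 that did not, and open diamonds those that are not the brightest of their gene. Both Il6ra, the Osm and 3 of 4 Stat3 probe sets lie to the right, and all 4 of Il6st lie slightly to the left of 0.

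The other genes of the pathway were taken from lists of 60 genes, of which 53 had a probe set annotated to them alone. Of these 12 rose and 1 fell, against 6.22% and 8.35% of all genes. With the replicate number as a block 19 rose and 2 fell, where the same fit called 8.58% of all genes higher and 12.1% lower. Without GFP-KLF2pos replicate 1 or GFPpos replicate 2, 6 rose. In these fits 682 and 556 of all 18193 genes rose, in that order, against 1131 with all arrays. The median log2 fold change of the 53 was 0.18, and that of all genes -0.01.

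Among other ligands of the family *Ebi3*, the subunit that pairs with p28 to form IL-27, fell. It read 7.05, 5.91 and 7.48 in GFP-KLF2pos arrays, against 9.13, 8.93 and 9.33 in GFPpos arrays, so that its log2 fold change was -2.32 (adjusted p = 0.00838). Every GFP-KLF2pos array was well below every GFPpos array. *Clcf1*, a cytokine that acts through gp130, LIFR and the CNTF receptor, rose by 1.37 (adjusted p = 0.0236). Its dimmer probe sets rose by 1.38 and 0.34, and in GFPpos arrays alone the latter was the brightest (7.02 against 6.90). The probe set used for *Clcf1* did not pass without GFPpos replicate 2 or any 1 of the GFP-KLF2pos replicates (adjusted p = 0.0564 to 0.0824). *Il6* itself was at 3.21 in GFP-KLF2pos and 3.06 in GFPpos cells, under the lower quartile of the arrays. *Ctf1*, *Il11* and *Il31* lay between 0.05 and 0.19 and did not pass.

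None of 5 other receptor chains passed, and only *Il12rb2* (0.64) had an unadjusted p under 0.05, with a higher value, as had 12% of all genes. *Il12rb2* passed with array weights (0.82, adjusted p = 0.0204) and without GFPpos replicate 3 (0.88, adjusted p = 0.00933). *Osmr*, the chain that binds oncostatin M in mice, was at 4.75 in GFP-KLF2pos and 4.64 in GFPpos cells (log2 fold change 0.11, adjusted p = 0.716), and the 5 ranged from 0.05 to 0.64. *Adam17*, a protease that can shed the IL-6 receptor from the cell surface, rose by 0.37 (adjusted p = 0.0182). This call was lost without GFP-KLF2pos replicate 1 or 3 or GFPpos replicate 1 or 2 (adjusted p = 0.0515 to 0.0676). At its other probe sets *Adam17* had 0.37 (adjusted p = 0.0433) and 0.25 (adjusted p = 0.143). *Adam10*, a related protease, had -0.05 at its brightest probe set (adjusted p = 0.819). Its other probe sets had -0.26, -0.29 and 0.03 and did not pass (adjusted p = 0.1475, 0.1607 and 0.908).

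Of 4 JAK kinases *Jak2* and *Jak1*, both found on gp130, rose. *Jak2* read 10.05, 10.04 and 9.84 in GFP-KLF2pos arrays, against 8.83, 8.87 and 9.27 in GFPpos arrays, which is a rise of 0.99 on the log2 scale (adjusted p = 0.00474), and its second probe set rose by 1.02. *Jak1* rose by 0.73 (adjusted p = 0.0134), and by 0.66 and 0.91 at its other probe sets. The brightest probe set of *Jak1* did not pass without GFP-KLF2pos replicate 1 or 2 or GFPpos replicate 2 (adjusted p = 0.047 to 0.0512). *Tyk2* (0.09) and *Jak3* (0.08) did not pass. Of 5 other STAT factors *Stat4*, which acts after IL-12, rose by 0.64 (adjusted p = 0.0354). This call was lost whichever single array was left out (adjusted p = 0.052 to 0.111). *Stat2* had 0.63 with overlapping groups and did not pass (adjusted p = 0.109). *Stat6*, *Stat5a* and *Stat5b* had 0.19, 0.18 and 0.07 and did not pass. For 4 of the 5, GFP-KLF2pos was higher without overlap, as for 14.3% of all genes. With array weights 2 of the 5 rose, where 1441 of all genes did.

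*Socs3*, the feedback inhibitor that binds gp130 and blocks its JAK kinases, rose 4.22-fold. It read 11.42, 11.23 and 10.90 in GFP-KLF2pos arrays, against 9.41, 9.11 and 8.79 in GFPpos arrays. No GFP-KLF2pos array came near a GFPpos array, and the rise was 2.08 ± 0.18 on the log2 scale (adjusted p = 0.00127). The other probe sets of *Socs3* rose by 2.03 and 1.80. By the brightest probe sets it was the 1 of 10 negative regulators that rose, and the median of these was -0.03. At dimmer probe sets *Pias3* rose (0.32, adjusted p = 0.0289) and *Ptpn2* fell (-0.53, adjusted p = 0.0384, and -0.69, adjusted p = 0.0102). Their brightest probe sets had 0.67 (adjusted p = 0.0752) and -0.15 (adjusted p = 0.250), in that order. A further *Ptpn2* probe set had -0.11 and did not pass. *Socs1*, *Socs2* and *Cish*, of the same family, had 0.10, -0.27 and 0.05 and did not pass.

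Of 22 measured genes that STAT3 is known to induce in some cell types, *Socs3* among them, 7 rose and 0 fell, with a median of 0.63. Many of these genes also answer other signals, such as that of the T cell receptor. *Bcl3*, a nuclear partner of NF-kB, rose by 1.41 (adjusted p = 0.0031), *Junb*, an AP-1 subunit, by 1.17 (adjusted p = 0.000672) and *Fosl2*, another, by 1.58 (adjusted p = 0.034). The brightest probe set of *Fosl2* did not pass without GFPpos replicate 2 or any 1 of the GFP-KLF2pos replicates (adjusted p = 0.0865 to 0.0931), and its second had -0.05. *Prdm1*, *Pim3* and *Mcl1*, named after their values were seen, rose by 1.05, 0.74 and 0.59. *Pim3* did not pass without GFP-KLF2pos replicate 1 or GFPpos replicate 1 or 2 (adjusted p = 0.0467 to 0.0507). With the replicate block, in which 8.58% of all genes rose against 6.22% without it, 13 of the 22 rose, and the 6 added were *Fos*, *Maf*, *Rora*, *Il10*, *Bcl6* and *Ahr* (0.54 to 1.08, adjusted p = 0.00923 to 0.0392). Without the block a dimmer *Rora* probe set passed (0.77, adjusted p = 0.0438), and its others (-0.07 to 0.63) did not. Dimmer probe sets of *Maf* (0.02 to 0.70), *Ahr* (0.05) and *Bcl6* (-0.03) did not pass without the block. That of *Bcl6* was the brighter in GFPpos arrays alone (5.23 against 4.93). *Batf* (0.25), *Pim1* (0.19), *Hif1a* (0.15) and *Cebpd* (0.05) did not pass in either fit. Neither did the genes with negative values, *Pim2* (-0.43), *Irf4* (-0.28), *Cebpb* (-0.14), *Bcl2* (-0.10) and *Il21* (-0.05). In the block fit *Pias3* (0.67, adjusted p = 0.0236) also rose and *Ptpn1* (-0.38, adjusted p = 0.0252) fell. Both passed without GFPpos replicate 3 too (adjusted p = 0.0242 and 0.0404, in that order). *Pias3* also passed with array weights (adjusted p = 0.0376) and with its probe sets averaged (adjusted p = 0.0278).

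**Figure D4:**
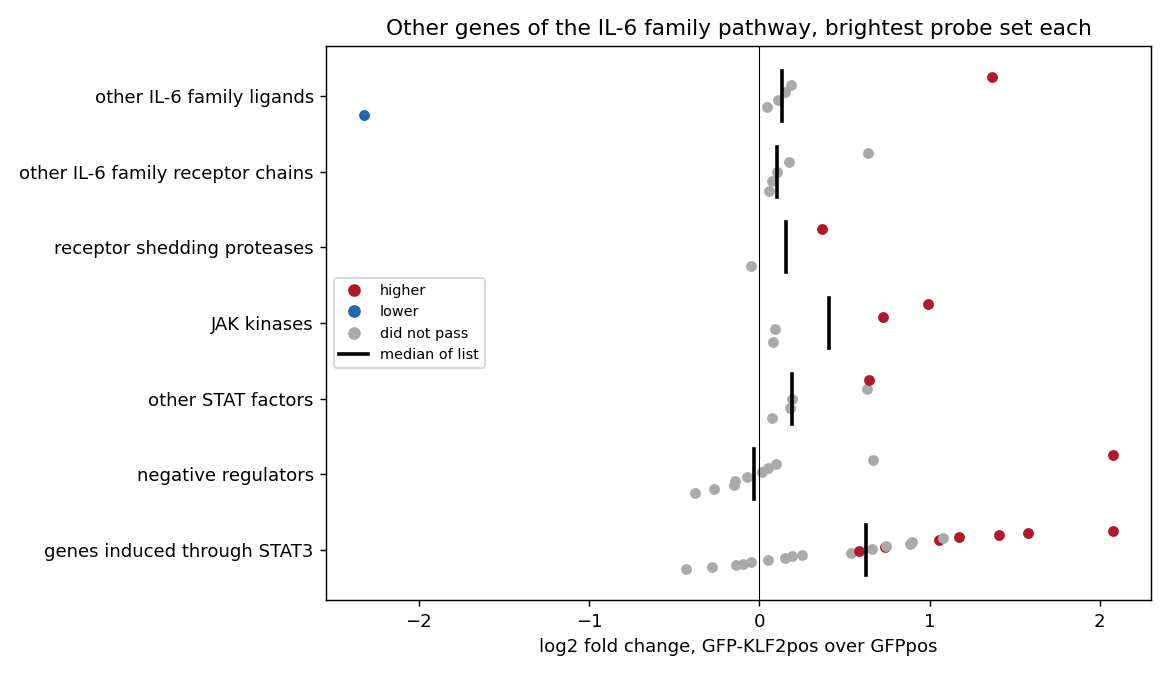
Log2 fold change of GFP-KLF2pos over GFPpos for the 53 measured pathway genes, by list, at the brightest probe set of each (Socs3 is in 2 lists). Red genes rose, blue fell and grey did not pass, and black bars are list medians. Ebi3 at -2.32 stands alone on the left, and Socs3 at 2.08 is farthest to the right.

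The transcripts whose level followed that of *Il6ra* most closely over the 6 arrays were *Slfn2*, a Schlafen gene of quiescent lymphocytes (Pearson's r = 0.998), *Flad1*, an enzyme of flavin synthesis (0.995), and *Ccnd2*, a D-type cyclin (0.995). Their log2 fold changes, 0.76, 0.48 and 0.77, were far smaller. For *Osm* the closest were *Rap1gap2*, *Lrrc8a* and *Pglyrp1* (0.994 to 0.996), and for *Stat3* they were *Pogk*, *Emp1* and *Lair1* (0.998 to 0.999). All points share the same 6 arrays in 2 groups, and the difference between the groups enters every r.

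Over the whole array, correlation was 0.993 to 0.996 between arrays of one group and 0.982 to 0.990 between groups. The probe set of *Klf2* read 9.83, 9.67 and 8.74 in GFP-KLF2pos arrays and 10.99, 10.37 and 8.80 in GFPpos arrays (log2 fold change -0.64, adjusted p = 0.552). Per the study it reads sequence that the construct lacks, so that it does not check the labels. The T cell markers *Cd8a* (12.00 in GFP-KLF2pos and 12.14 in GFPpos cells) and *Cd3e* (10.13 and 10.20, in the same order) were bright in both groups. Of 7 measured CD8 T cell markers *Cd8b1* rose (0.45, adjusted p = 0.0107) and 0 fell, with *Thy1* at 0.20 (adjusted p = 0.149) and summed linear intensities of 50477 to 53485.4 in GFP-KLF2pos and 46966 to 49773.6 in GFPpos arrays. Beside the marker counts given here, 6.22% of all genes rose and 8.35% fell. In lists of a few genes such shares leave few calls or none. Monocytes, granulocytes and CD4 T cells can also express *Il6ra*. Of 8 monocyte and macrophage markers 0 passed (*Cd68*, with 0.43, had an unadjusted p under 0.05 and passed in the block fit), and their summed linear intensity was 394.6 to 433.2 in GFP-KLF2pos and 359.9 to 395.3 in GFPpos arrays. *Lyz2* was at 5.31 in GFP-KLF2pos and 5.32 in GFPpos cells. Of 7 granulocyte markers 0 passed, also at an unadjusted p under 0.05, with sums of 184.4 to 189.3 in GFP-KLF2pos and 166 to 191.6 in GFPpos arrays. *S100a8* was near the lower quartile, at 4.16 in GFP-KLF2pos and 4.05 in GFPpos cells. Of 4 CD4 T cell markers *Zbtb7b* rose (0.45, adjusted p = 0.0429) and *Cd4* had 0.11, with sums of 372.7 to 408.9 in GFP-KLF2pos and 301 to 339.5 in GFPpos arrays. Of the measured markers of B cells, NK cells and dendritic cells 0 passed, though *Cd79a*, *Ms4a1* and *Blnk*, 3 of the 5 for B cells, had higher values at an unadjusted p under 0.05 (0.31, 0.66 and 0.47). At that unadjusted threshold 12% of all genes were higher. The B cell sums were 264.7 to 397 in GFP-KLF2pos and 268.4 to 291.3 in GFPpos arrays. The part of such cells in the rise of *Il6ra*, *Osm* or *Stat3* was not tested. For *Actb*, control probe sets at the 3′ end read above those at the 5′ end by 0.0773 to 0.0837 in GFP-KLF2pos and 0.111 to 0.121 in GFPpos arrays, whereas for *Gapdh* the same difference was -0.169 to -0.139 in GFP-KLF2pos and -0.179 to -0.116 in GFPpos arrays, so that the groups overlapped. The part of this in the results was not tested either.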

How the data were processed

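Affymetrix Mouse Genome 430 2.0 arrays (1 colour, 1 array per sample) were normalised by the authors with RMA, and intensity values per probe set were deposited on a linear scale, from 5.74 to 33637.8. RMA and limma are named in the submitters' processing notes, with no versions. Here the log2 of each deposited intensity was taken, 64 control probe sets were removed from 45101, and GFP-KLF2pos was compared with GFPpos by limma 3.58.1 in R 4.3.3 (1 constant per group, moderated variances, 2-sided), as in the study's methods, with Benjamini-Hochberg adjustment over 45037 probe sets. The methods print a threshold of 0.046%, read here as 0.046. Of the probe sets 34945 are annotated to 1 gene, 932 to several and 9160 to none in the annotation used. The number of arrays limits the precision.

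The genes, pathway lists and alternatives were chosen with earlier results of these data known. Named were all 7 genes, up to 4 genes per list that passed, and the 3 genes most correlated with each of *Il6ra*, *Osm* and *Stat3*. *Prdm1*, *Pim3* and *Mcl1* were added after their values were seen. So were genes with calls only in alternatives or at dimmer probe sets, and genes given as not passing. The fit was checked on simulated data with 200 changed genes. Deviations from the group means of arrays with the same replicate number correlated at 0.325, 0.442 and 0.466, so that the numbers were taken to pair the arrays. Only the fit with the replicate block uses this pairing. The main fit, which follows the study's methods, and the permutation for *Il6ra* do not. Promoter sequences are from RefSeq. Alternatives were the replicate block, other thresholds, a filter on dim probe sets, quantile, cyclic loess and median normalization, an intensity trend with robust variances, array weights, the mean of a gene's probe sets, and each array left out.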

Additional observations from a re-analysis of the deposited data

How the results depend on the processing

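Besides leaving out each of the 6 arrays, 11 alternatives were run. Leaving out single arrays, 3 genes rose and 0 fell each time, 4 to 5 of the 17 probe sets rose, and log2 fold changes ranged from 3.08 to 3.83 for *Il6ra*, 1.18 to 1.39 for *Osm*, 0.65 to 0.76 for *Stat3*, 0.23 to 0.72 for *Lif*, -0.35 to -0.24 for *Il6st*, -0.37 to -0.03 for *Il27ra* and -0.061 to 0.101 for *Lifr*. Of the pathway genes 6 to 13 rose and 1 to 2 fell. The 1454984_at probe set of *Lifr* (up to 0.026), 1424272_at of *Stat3* (-0.0545 to 0.0823) and *Ahr* (-0.11 without GFPpos replicate 1) changed sign without passing. Of all genes 556 to 1041 rose and 591 to 1132 fell. At the printed threshold of 0.00046, 0 of the 7 genes, 0 of the 17 probe sets and 0 pathway genes passed (*Il6ra* 3.40, *Osm* 1.30, *Stat3* 0.71), and of all genes 31 rose and 3 fell. With at least 2-fold required, 2 probe sets, 6 pathway genes and 405 of all genes rose, 130 of all genes fell, and *Stat3* (0.71) was lost by construction. *Il6st* fell after quantile normalization (-0.31), the 1 gene and 1 probe set to do so, and the cause was not tested. *Lifr*, never called, had -0.0419 with array weights and -0.0818 with all probe sets averaged, where 2 pathway genes fell. With the replicate block 19 pathway genes rose and 2 fell, and of all genes 1561 rose and 2203 fell. No call among the 7 genes or 17 probe sets changed with the block, though *Lif* came close (adjusted p = 0.04999). The 1459961_a_at probe set of *Stat3* did not pass with median centring (adjusted p = 0.0462) or an intensity trend (adjusted p = 0.0475). *Fosl2* did not pass with an intensity trend or with its probe sets averaged. With cyclic loess 961 of all genes fell. Dim signal limits *Lifr* and *Il6*.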

Other observations

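Of the 4 receptor chains described, *Il6ra* alone rose, while the values of the shared chain *Il6st* were negative at all 4 probe sets without passing the test. Of the genes next to each other on a chromosome, *Osm* rose by 1.30 and *Lif*, which follows it, had 0.40 without passing. *Il6st* (-0.31) and *Il31ra* (0.05), which follows it on chromosome 13, also did not pass. These differences between genes were not tested.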
